A study of Gallus gallus with 8 samples.

Results

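The regions described here are dense loci of Otx2 and Oc1 occupancy in developing chick retina, that is, stretches of chromosome in which several occupied regions lie close together. Peaks of 4 CUT&RUN libraries were joined into regions wherever they overlapped by 1 base or more, mitochondrial peaks aside. A region was called reproducible when it held peaks at both digestion times of Otx2 or at both digestion times of Oc1. The term means presence at both times, with 1 library at each, and not agreement of replicates. Reproducible regions were then chained along each chromosome while the gap to the next one was 20000 bases or less, and chains of 4 or more regions were kept. This gave 2088 regions in 378 chains, out of 9717 reproducible regions and 22265 regions in all. The members are thus 21.5% of the reproducible regions. They were chosen by presence in the lists and by spacing, so neither their number nor their density is a test result.

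The study used dissociated retina of wild-type chick embryos at stage E5 (embryonic day 5), from which released DNA was sequenced after an antibody had directed a nuclease to its target on chromatin. The groups are Otx2 stopped after 25 min of digestion, Otx2 stopped after 30 min, Oc1 stopped after 25 min and Oc1 stopped after 30 min, with 1 library each and the Otx2 antibody from Proteintech and the Oc1 antibody from Santa Cruz Biotechnology. The IgG and H3K27me3 libraries of the same series were not analysed here. The sample is whole retina and holds several developing cell types, so a peak cannot be assigned to any one of them. Each antibody and time has 1 library, so no p-values are given. Intervals are Wilson 95% intervals unless named otherwise and cover counting error over regions or peaks only. All intervals over regions or peaks treat these as independent, although members lie in chains and neighbouring regions resembled each other, as given below. Such intervals may therefore be too narrow, and by how much was not computed. Whether intervals overlap is given as a description and not as a test.

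Otx2 is a homeodomain transcription factor needed for the specification of photoreceptors, and it also acts in bipolar cells and in the pigmented epithelium. Oc1, also called Onecut1, is a cut homeodomain factor known in the retina for its part in the development of horizontal cells and early-born cones. Regulatory elements of developmental genes often lie in groups over a stretch of chromosome, and genes of transcription factors are known for many elements spread over and around them. Chicken chromosomes comprise a few large macrochromosomes and many small microchromosomes, which are gene-dense.

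The 4 lists held between 9043 and 11494 peaks outside the mitochondrial chromosome. The deposited fold enrichment of a peak is its read pile-up over the local background of the same call, and the read number behind each peak was recovered from its fold and p. The median was between 6 and 8 reads at the summit. Single values of fold therefore rest on few reads, and statements below rest on counts of regions or on both digestion times. Positions are in galGal5, the build named in the submitters' processing notes, counted from 1. No genome of that build was at hand, so genes at these loci are not named.

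Most chains were short. Chains of 4 or 5 regions numbered 261 of the 378 (69.0%), and the median chain held 5 regions over 28.0 kb, with spans between 3.72 and 144 kb. At the other extreme, 26 chains of 10 or more regions held 329 members. Regions per 100 kb of chain ranged from 7.42 to 107, with a median of 17.8. Inside chains the median gap was 5073 bases, and 274 of 1710 gaps (16.02%) were under 1000 bases. The median gap between all neighbouring reproducible regions was 36446.5 bases. The rule cuts through a continuous range. The largest gap inside a chain was 19984 bases and the smallest gap over the limit 20009 bases. There were 181 chains of 4 regions, just inside the rule, and 438 runs of 3 regions, just outside it. Runs of 4 regions held 29.3% regions of both antibodies at both times, and runs of 3 held 27.8%.

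**Figure D1:**
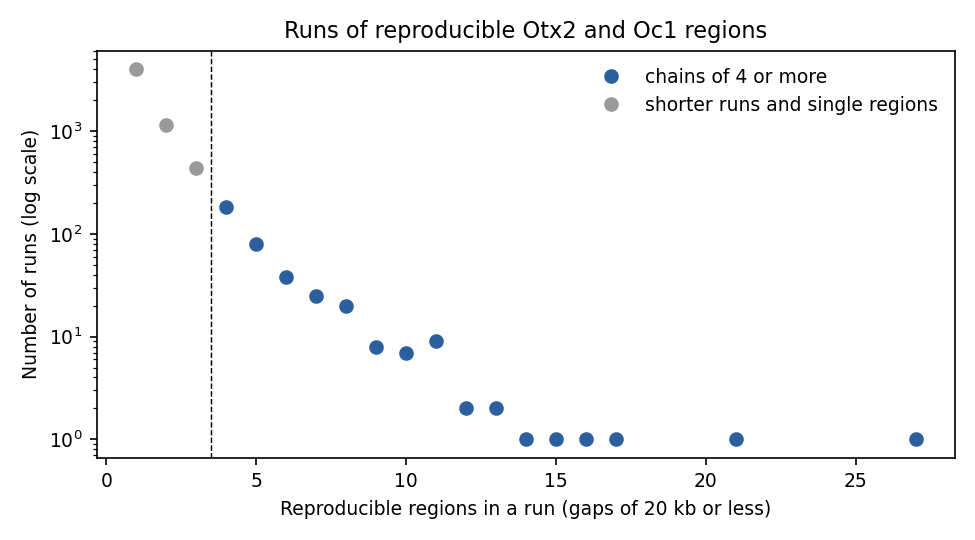
Number of runs (log scale) against the number of reproducible regions in a run, with chains of 4 or more in blue, shorter runs and single regions in grey, and the limit of the rule as a dashed line. Numbers fall from 4013 single regions to 181 chains of 4, and each length from 14 regions upwards that occurs is held by 1 chain, the longest with 27.

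Each reproducible region belongs to one of 3 classes. Regions of both antibodies have peaks in all 4 libraries. Regions of the Otx2 class have peaks at both times of Otx2 and in at most 1 Oc1 library, and those of the Oc1 class have peaks at both times of Oc1 and in at most 1 Otx2 library. The members comprised 590 regions of both antibodies, 905 of the Otx2 class and 593 of the Oc1 class. Within the Otx2 class, 615 members had no Oc1 peak at all, and within the Oc1 class 348 members had no Otx2 peak.

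The chain with the most regions lay on chromosome 11, from 17860207 to 18003904, with 27 regions over 144 kb. All 27 regions had Otx2 peaks at both times: 6 were regions of both antibodies, 21 were of the Otx2 class and 0 were of the Oc1 class. Its strongest region, from 17879067 to 17879710, had fold enrichments of 27.04 and 23.8 for Otx2 at 25 and 30 min, and of 15.2 and 20.9 for Oc1 at 25 and 30 min. A region 71.7 kb from the start of the chain had Otx2 folds of 24.5 and 14.5, and Oc1 folds of 13.5 and 12.5. The strongest peak of each of the 4 libraries in this chain stood at the first of these places. Over the whole chain the median Otx2 fold was 8.45 at 25 min and 7.77 at 30 min. Peaks of Oc1 were found in 12 of the regions at 25 min and in 8 at 30 min, so most of its regions carried Otx2 with Oc1 at 1 time or not at all. A further 21 regions that were not reproducible lay within its span.

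**Figure D2:**
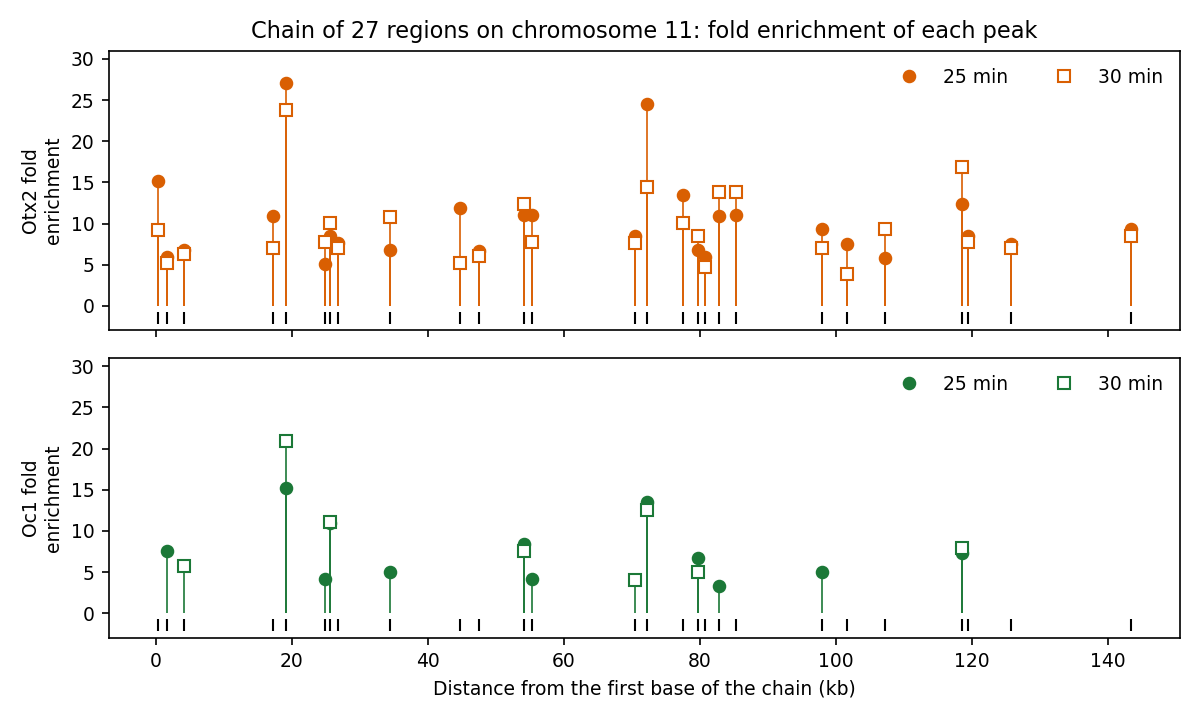
Fold enrichment of each Otx2 peak (upper panel) and Oc1 peak (lower panel) against distance from the first base of the chromosome 11 chain in kb, with filled circles for 25 min, open squares for 30 min and black ticks for the 27 regions. Otx2 peaks stand at every tick at both times, and the 6 places with Oc1 at both times include the Otx2 peaks with folds of 27.04 and 24.5.

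The next longest chains were on chromosome 26, from 1788018 to 1912606 with 21 regions, and on chromosome 3, from 42050704 to 42152538 with 17 regions. The chromosome 26 chain was also rich in Otx2, with 13 regions of the Otx2 class, 6 of both antibodies and 2 of the Oc1 class. The region named by rule in each chain is the one whose smallest −log10 q over the libraries with a peak is highest, which favours regions without the other antibody. In this chain that was the region from 1900233 to 1900663, with Otx2 folds of 10.98 and 11.6 at 25 and 30 min and no Oc1 peak. Higher folds stood in the neighbouring region of both antibodies, from 1901617 to 1902585, with 17.6 and 18.5 for Otx2 and 14.6 and 10.02 for Oc1 at 25 and 30 min. The chromosome 3 chain was of another make-up. There 9 of 17 regions were of both antibodies, with 4 each of the Otx2 and Oc1 classes. The region named by the same rule, from 42081810 to 42083219, had Otx2 folds of 11.1 and 12.3 and Oc1 folds of 17.2 and 17.7 at 25 and 30 min. The recovered background there was 3.39 times the genome-wide one for Otx2 and 2.75 times for Oc1 at 25 min. At 30 min it was 1.0 and 5.63 times.

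The chain of 16 regions on chromosome 15, from 1589116 to 1718598, held 6 regions of both antibodies, 4 of the Otx2 class and 6 of the Oc1 class. On chromosome Z, 15 regions lay between 79805404 and 79878859, of which 6 were of both antibodies, 5 of the Otx2 class and 4 of the Oc1 class. The 3 classes were thus nearly level in these 2 chains. Chromosome 23 had a chain of 14 regions from 3578676 to 3665637, with 8 of the Otx2 class, 4 of the Oc1 class and 2 of both antibodies. A chain of 13 regions on chromosome 1, from 112506712 to 112551042, had 11 of the Otx2 class, 2 of the Oc1 class and none of both antibodies. Chromosome 10 had 2 of the 10 longest chains, and they differed in their mix. The chain from 17874793 to 17937271 had 7 regions of the Otx2 class, 4 of the Oc1 class and 2 of both antibodies. The chain from 8552504 to 8645683 had 8 regions of the Oc1 class, 4 of the Otx2 class and none of both antibodies. Its highest Oc1 folds, 20.2 and 13.7 at 25 and 30 min, stood in the region from 8576551 to 8577031, which also had an Otx2 peak at 25 min with a fold of 6.76. The region named by rule, from 8599429 to 8599847, had Oc1 folds of 10.1 and 13.4 and no Otx2 peak.

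**Figure D3:**
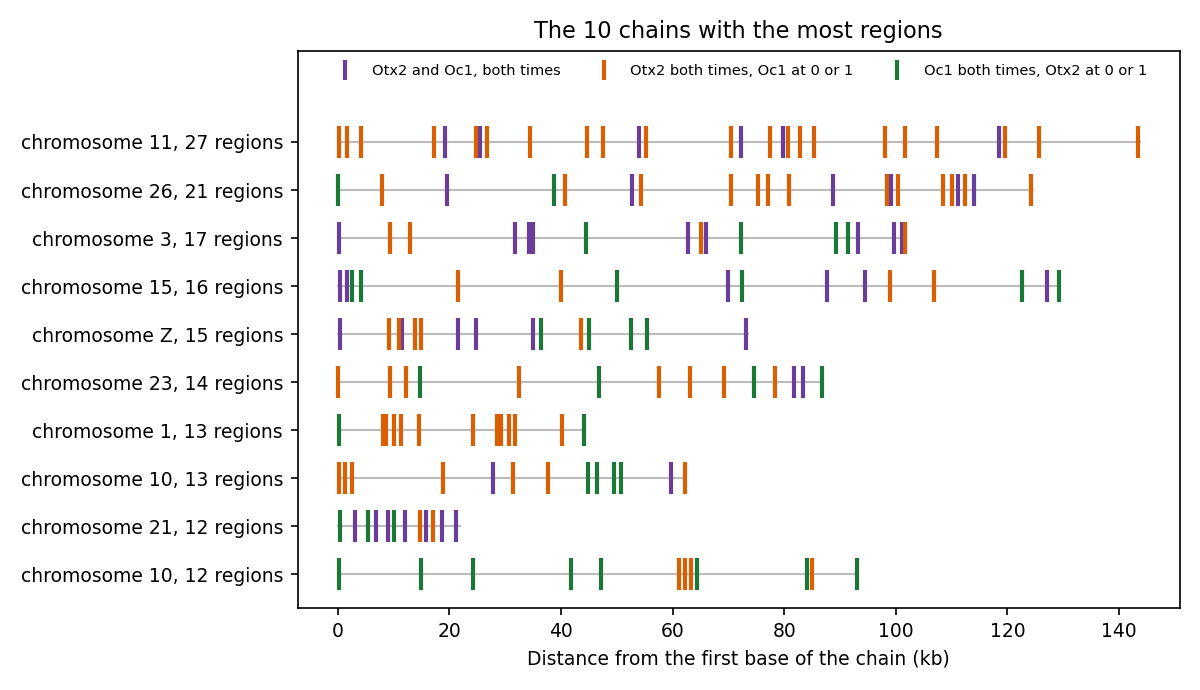
Position of each region in the 10 chains with the most regions, as distance from the first base of the chain in kb, coloured by class. The chromosome 11 chain at the top holds Otx2 at both times in all 27 regions, while the lower chromosome 10 chain at the bottom holds 8 regions of the Oc1 class and none of both antibodies.

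Chains of 1 class alone were few. There were 18 chains of the Otx2 class alone (4.76%, 3.03 to 7.40%), 8 of the Oc1 class alone (2.12%, 1.08 to 4.12%) and 2 with regions of both antibodies alone. In 352 chains (93.1%, 90.1 to 95.3%) each antibody had at least 1 region with peaks at both times. All 3 classes occurred in 166 chains (43.9%, 39.0 to 49.0%). The Otx2 class outnumbered the Oc1 class in 205 chains, and the Oc1 class outnumbered the Otx2 class in 127. All these counts depend on the class shares and on the number of regions in a chain. What these alone would give was not computed, so the counts do not show how far the classes mix within chains.

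The longest chain of the Otx2 class alone lay on chromosome 8, from 5931904 to 6018888, with 11 regions. Its Otx2 folds lay between 5.91 and 15.1 at 25 min, and at 30 min between 4.55 and 13.1. Oc1 had peaks in 4 of these regions at 25 min and in 0 at 30 min. The longest chain of the Oc1 class alone lay on chromosome 1, from 48092910 to 48141456, with 10 regions. Its Oc1 folds lay between 5.05 and 13.5 at 25 min, and at 30 min between 3.59 and 10.9, and the only Otx2 peak was 1 at 25 min with a fold of 4.64. Neither chain was a place of strong peaks throughout: in the first, 3 Otx2 peaks at 25 min and 2 at 30 min reached a fold of 10, and in the second, 1 Oc1 peak at each time did. Of the 2 chains with regions of both antibodies alone, the shorter in span lay on chromosome 4, from 13331214 to 13343127. Its 4 regions had Oc1 folds of 8.86 to 21.7 at 25 min and 12.9 to 15.9 at 30 min. The Otx2 folds there were 5.55 to 13.1 at 25 min and 3.95 to 7.56 at 30 min.

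Another chain was singled out after its values were seen, since it holds the peak of highest fold in any of the lists. It lay on chromosome 2, from 17421315 to 17448517, and comprised 4 regions over 27.2 kb. Its last region, from 17447365 to 17448517, had Oc1 folds of 305 and 318.5 at 25 and 30 min, on 368 and 386 summit reads. The Otx2 folds of the same region were 8.36 and 6.94. The other 3 regions of this chain were of the Otx2 class, with Otx2 folds between 4.22 and 7.60, and 1 of them had an Oc1 peak at 30 min with a fold of 7.52. The extreme Oc1 peak stood at the edge of a short group of modest Otx2 peaks.

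Among chains of 6 or more regions, the densest lay on chromosome 1, from 9370680 to 9380176, with 6 regions in 9.50 kb. Its folds were low, between 2.04 and 6.28 over all 4 libraries, and its background was raised above the genome-wide one by 28.1 to 197 times. Every region of this chain had an Oc1 peak at both times. In a further 2 chains, every region had a background above 10 times the genome-wide one in at least 1 library. They were a chain of 6 regions of the Otx2 class on chromosome 1, from 152858929 to 152873372, and a chain of 5 regions on chromosome 16, from 609277 to 617261. The part of the raised background in these chains was not tested. The next densest chain, on chromosome 21 from 1398045 to 1419930, held 12 regions in 21.9 kb, 7 of them of both antibodies. The region named by rule, from 1413096 to 1414518, had Otx2 folds of 16.2 and 10.2 and Oc1 folds of 29.2 and 9.37 at 25 and 30 min, over a background raised 1.60 times for both antibodies at 25 min, and 3.97 times for Otx2 and 22.5 times for Oc1 at 30 min. The third, on chromosome 3 from 16066423 to 16080382, held 7 regions in 13.96 kb.

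Members leaned towards Otx2 relative to the other reproducible regions. The Otx2 class made up 43.3% of members (41.2 to 45.5%) and 36.4% of reproducible regions outside chains (35.3 to 37.5%), with 37.9% over all reproducible regions. Regions of both antibodies made up 28.3% of members (26.4 to 30.2%) and 22.4% outside chains (21.5 to 23.3%), with 23.6% overall. The Oc1 class made up 28.4% of members (26.5 to 30.4%) and 41.2% outside chains (40.1 to 42.3%), with 38.5% overall. Put by antibody, 71.6% of members and 58.8% of other reproducible regions had Otx2 at both times, whereas 56.7% of members and 63.6% of the others had Oc1 at both times. Runs of 3 regions, just outside the rule, had much the same mix as chains of 4. The Otx2 class made up 38.7% of runs of 3 and 37.2% of chains of 4, near the 37.9% of all reproducible regions. The Oc1 class made up 33.5% and 33.6%, so its lower share was also seen in runs of 3.

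Co-occupancy differed by the antibody from which it was counted. The shares that follow are the class counts of the mix put over another base, so they are not a separate result. Of the Oc1 regions reproducible at both times, 49.9% in chains (47.0 to 52.7%) and 35.2% outside (33.9 to 36.5%) also held Otx2 at both times. Of the Otx2 regions reproducible at both times, 39.5% in chains (37.0 to 42.0%) and 38.1% outside (36.7 to 39.5%) also held Oc1 at both times, and these intervals overlap. Each share uses both digestion times together, so each antibody gives 1 value, and the difference between the antibodies was not tested.

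These shares depended on how chains were formed. Chains formed from regions at both times of Otx2 alone held fewer regions of both antibodies than the remaining such regions, by 4.92 percentage points. Among regions at both times of Otx2, the same share under the rule was 39.5% in chains and 38.1% outside. The excess of 5.87 points under the rule is over all reproducible regions, so it has another base than the 4.92 points. A recovered background above 3 times the genome-wide one in any library was seen in 36.9% of members and 33.3% of other reproducible regions. This limit marked the libraries unevenly. Among peaks of members, it was passed by 25.25% and 11.03% for Otx2 and by 10.91% and 25.46% for Oc1 at 25 and 30 min. In the named chains, backgrounds of 3.39 times for Otx2 and 2.75 times for Oc1 recurred at 25 min, on either side of the limit. At 30 min, 9.27 times for Otx2 and 5.63 times for Oc1 recurred. Larger repeated values were 6.79 and 5.49 times at 25 min and 18.5 and 11.3 times at 30 min, for Otx2 and Oc1. These lay near whole multiples of the smaller values of the same library, so such backgrounds are not finely graded. The recovered background thus often rose in coarse steps that differed between libraries. What such a step stands for was not tested. Regions above the limit in any library were then left out. Regions of both antibodies have peaks in more libraries than the other classes, so more of their peaks could pass it. How many regions of each class were left out is not given here. The difference between members and others was then 19.2 points for the Otx2 class, 2.30 for both antibodies and -21.5 for the Oc1 class. The interval for both antibodies, 3.06 points either way, then included 0. Under the rule these were 6.95, 5.87 and -12.8 points. The part of background in these differences was not tested otherwise.

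**Figure D4:**
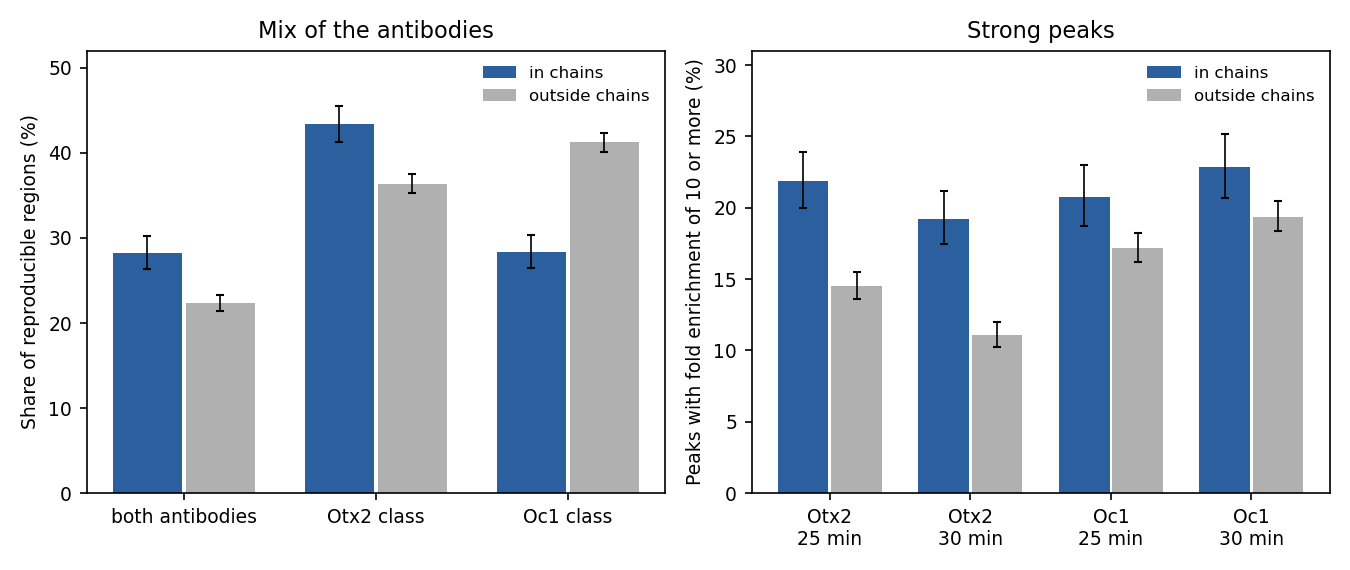
Left, share of reproducible regions in each class, in chains (blue) and outside chains (grey); right, share of peaks with a fold enrichment of 10 or more in each library, with the same colours; bars carry Wilson 95% intervals. Chains hold 43.3% regions of the Otx2 class against 36.4% outside, and the share of strong peaks is higher in chains in all 4 libraries.

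The share of the Otx2 class differed with chain length, but not in steady steps. It made up 37.2% of members in chains of 4, 48.1% in chains of 5 or 6, 41.3% in chains of 7 to 9 and 50.5% in chains of 10 or more. The Oc1 class made up 33.6%, 25.2%, 29.2% and 22.2% in the same order. Regions of both antibodies stayed between 26.8% and 29.5%. The last group comprised 26 chains, and those on chromosomes 11 and 26 with 27 and 21 regions held 21 and 13 of the Otx2 class. No intervals were computed for these shares, and a trend with length was not tested. Pooled over all chains, interior regions and the regions at the 2 ends also differed in mix. The Oc1 class made up 25.0% of interior regions (22.7 to 27.4%) and 34.4% of end regions (31.1 to 37.8%). The Otx2 class made up 45.4% of interior regions (42.8 to 48.1%) and 39.7% of end regions (36.3 to 43.2%), and these intervals overlap. Each chain gives 2 ends whatever its length, so longer chains weigh more among interior regions. The part of chain length in these differences was not tested.

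Neighbouring regions were more often of one class than the class shares alone would give, and the share of such pairs was higher the closer they lay. Of 1710 neighbouring pairs inside chains, 45.6% (43.3 to 48.0%) were of the same class, where the class shares of members alone would give 34.8%. A member of the Otx2 class next to one of the Oc1 class made up 15.9% of pairs, where the shares alone would give 24.6%. Among all neighbouring reproducible regions, the share of pairs of 1 class was 55.3% at gaps under 1000 bases, 48.2% at 1000 to 5000 bases, 45.4% at 5000 to 20000 bases, 40.4% at 20000 to 100000 bases and 38.2% beyond. The class shares of all reproducible regions alone would give 34.7%. The mix of classes also changed with the gap. Pairs of the Otx2 class numbered 168 and pairs of the Oc1 class 97 at gaps under 1000 bases, and 311 and 617 beyond 100000 bases. The part of this mix in the fall with distance was not tested. Frequent pairs of 1 class were not limited to chains. Pairs with gaps of 20000 bases or less outside chains, in runs of 2 or 3 regions, were of 1 class in 49.7% of cases (47.6 to 51.9%). Parts of 1 broad site can be called as separate close peaks, and their share among the closest pairs was not tested.

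Strong peaks were more frequent in chains. A fold enrichment of 10 or more was reached by 21.9% of Otx2 peaks in chains and 14.5% outside at 25 min, with 16.3% over all peaks of reproducible regions. For Otx2 at 30 min the shares were 19.2% in chains and 11.1% outside, with 13.1% overall. For Oc1 at 25 min they were 20.8% in chains and 17.2% outside, with 17.9% overall. For Oc1 at 30 min they were 22.9% in chains and 19.4% outside, with 20.1% overall. The share was higher in chains in all 4 libraries, by 7.37 and 8.16 percentage points for Otx2 and by 3.59 and 3.495 points for Oc1 at 25 and 30 min. The 95% intervals of these differences, by a normal approximation, reached 2.18 and 2.08 points either way for Otx2, and 2.39 and 2.48 for Oc1. The Oc1 differences had intervals that included 0 in 3 other settings at both times. From regions at both times of Otx2 alone, chained in the same way, they were 1.22 ± 4.33 and 0.619 ± 4.48 points at 25 and 30 min (95% interval). They were 3.07 ± 4.01 and 0.8755 ± 4.29 points without regions of raised background, and 2.49 ± 4.79 and 2.78 ± 4.85 points with −log10 q of at least 5.

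The medians moved less than the strong tail. The median Otx2 fold was 6.78 in chains and 6.53 outside at 25 min, and 7.01 in chains and 6.24 outside at 30 min. The median Oc1 fold was 6.67 in chains and 6.60 outside at 25 min, and 6.68 both in chains and outside at 30 min. Peaks were also wider in chains, with median widths for Otx2 of 335 bases in chains and 298 outside at 25 min, and 226 in chains and 199 outside at 30 min. For Oc1 the widths were 347 bases in chains and 328 outside at 25 min, and 360 in chains and 356 outside at 30 min. Within classes, the Oc1 difference at 30 min did not hold. In the Oc1 class the median width was 344 bases both in chains and outside. It was 421.5 in chains and 420 outside for regions of both antibodies, and 249 in chains and 273 outside for the Otx2 class. The median Oc1 fold at 30 min in regions of both antibodies was 7.58 in chains and 7.97 outside.

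The share of strong peaks was also higher in chains for each antibody within the regions where it had peaks at both times. Among regions of both antibodies, 32.6% of Otx2 peaks in chains and 23.6% outside reached a fold of 10 at 25 min, and 26.1% in chains and 16.3% outside at 30 min. In the Otx2 class the shares were 18.3% in chains and 11.9% outside at 25 min, and 15.9% in chains and 9.16% outside at 30 min. For Oc1 peaks the differences were smaller and their intervals overlapped in each class. Oc1 peaks in regions of both antibodies reached a fold of 10 in 31.05% of cases in chains and 27.9% outside at 25 min, and in 35.2% in chains and 32.9% outside at 30 min. In the Oc1 class the shares were 15.025% in chains and 12.97% outside at 25 min, and 15.6% in chains and 14.4% outside at 30 min. Peaks of an antibody in the class of the other were rarely strong, in chains or outside. A fold of 10 was reached by 2 of 165 Otx2 peaks in chains and 16 of 715 outside in the Oc1 class at 25 min, and by 3 of 83 in chains and 3 of 396 outside at 30 min. In the Otx2 class it was reached by 2 of 146 Oc1 peaks in chains and 9 of 368 outside at 25 min, and by 2 of 148 in chains and 10 of 446 outside at 30 min. The intervals overlapped in each of these comparisons.

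The strongest peaks of each list were often members. Of the 100 peaks with the highest −log10 q, members held 43 in the first Otx2 library (25 min), 48 in the second (30 min), and 39 and 32 in the Oc1 libraries of 25 and 30 min. All of these peaks lay in reproducible regions. Members held 24.3%, 24.7%, 20.3% and 20.1% of all peaks of reproducible regions in the same order, and 14.8%, 18.4%, 13.9% and 12.7% of the whole lists. A peak with a fold of 10 or more in at least 1 library was found in 340 of 378 chains, and in all 4 libraries in 70 chains. Both counts depend on the number of peaks in a chain and on the share of strong peaks. What these alone would give was not computed, so the counts do not show how evenly strong peaks were spread over chains. Within chains, the highest and lowest fold of a library were compared where at least 3 regions held its peaks. The median ratio was 2.29 and 2.08 for Otx2 and 2.23 and 2.20 for Oc1 at 25 and 30 min. Such a ratio grows with the number of regions and rests on few reads. No like ratio was computed outside chains, so it does not show how far strength varied within them. Pooled over chains of all lengths, interior regions had a larger share of strong peaks than end regions in all 4 libraries. For Otx2 it was 24.6% of interior and 16.7% of end peaks at 25 min. At 30 min it was 21.0% of interior peaks (18.7 to 23.5%) and 15.7% of end peaks (12.9 to 18.9%), where the intervals overlap. For Oc1 it was 23.2% of interior and 16.8% of end peaks at 25 min, and 24.5% of interior and 20.2% of end peaks at 30 min, where the intervals also overlap. Interior and end regions differed in their mix of classes, and the share of strong peaks differed between classes. The comparison was not made within classes, so the part of the mix was not tested.

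Regions that were not reproducible, which the rule did not use, were also dense within the chains. Chain spans covered 12.3 Mb, or 1.21% of the length to the last peak of each chromosome. Of 12548 regions that were not reproducible, 688 (5.48%, 5.10 to 5.90%) lay inside them. This is 56.0 per Mb inside chains and 11.8 per Mb outside, a ratio of 4.75. The ratio was higher for regions seen in Otx2 alone, with 5.78 for those of the 25 min library and 6.55 for those of the 30 min library. For regions seen in Oc1 alone it was 2.999 at 25 min and 3.71 at 30 min. At least 1 region that was not reproducible lay within 273 of the 378 chains. On chromosomes with a last peak at 50 Mb or more, such regions numbered 48.2 per Mb inside chains and 9.80 outside. At 20 to 50 Mb they numbered 61.5 inside and 14.1 outside, and on shorter chromosomes 60.2 inside and 18.1 outside. With each peak having to cover 50% of the other before joining, the ratio over all chromosomes was 6.99. Under that setting, a peak that overlaps a member by less stays apart and can itself count as a region that was not reproducible. The value is therefore not a like comparison with 4.75.

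The share of reproducible regions lying in chains differed between chromosomes. On the 6 chromosomes with a last peak at 50 Mb or more, 16.1% of reproducible regions (15.1 to 17.1%) were members. It was 24.5% (22.6 to 26.4%) on the 6 chromosomes of 20 to 50 Mb and 29.6% (27.9 to 31.4%) on the 21 shorter ones. Reproducible regions were themselves denser on shorter chromosomes, with 7.39, 11.9 and 16.3 per Mb in the same order, and a fixed gap favours chains where regions are denser. With the gap scaled to the spacing on each chromosome, 1794 regions in 345 chains met the rule, of which 1548 were among the 2088 members and 246 were not. Chromosome 21 had the highest share among chromosomes with 100 or more reproducible regions, with 86 of 174 (49.4%, 42.1 to 56.8%), followed by chromosome 24 with 79 of 190 (41.6%, 34.8 to 48.7%) and chromosome 26 with 69 of 173 (39.9%, 32.9 to 47.3%). Chromosomes of similar length also differed. Chromosome 18 had 13 members of 148 (8.78%, 5.21 to 14.4%) and chromosome 13 had 25 of 200 (12.5%, 8.61 to 17.8%), although both are short. Among the long ones, chromosome 5 had 179 of 632 (28.3%, 24.9 to 32.0%) and chromosome Z had 57 of 463 (12.3%, 9.62 to 15.6%).

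**Figure D5:**
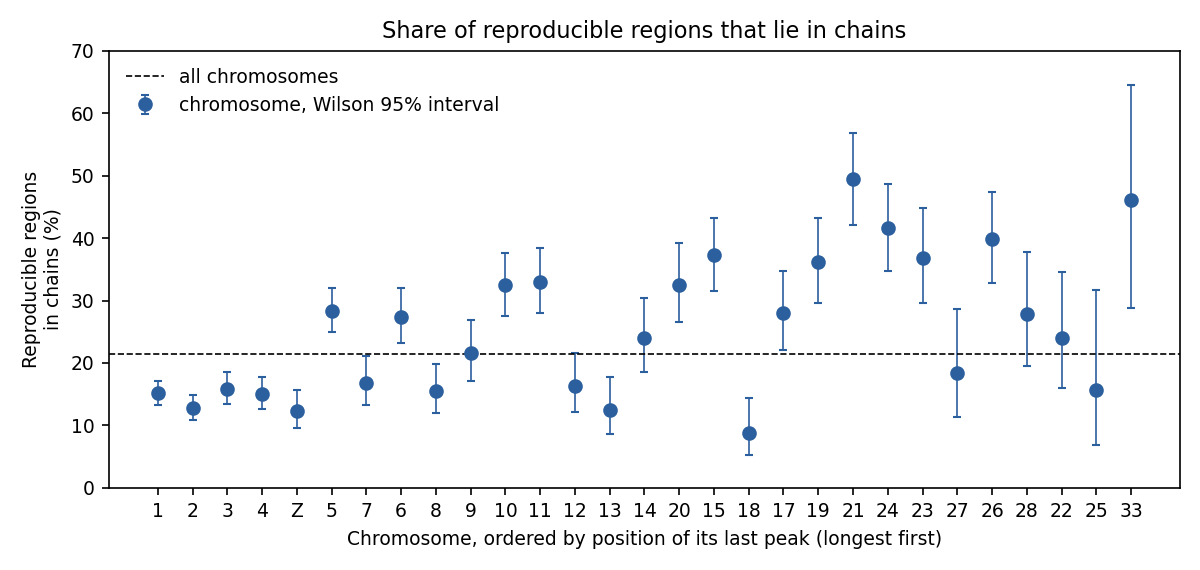
Share of reproducible regions that lie in chains, for each chromosome with 20 or more reproducible regions, ordered from the longest to the shortest by position of the last peak, with Wilson 95% intervals and the share over all chromosomes as a dashed line. Chromosome 21 stands highest at 49.4%, and chromosome 18 lowest at 8.78%.

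The lower share of the Oc1 class in chains held in each group of chromosomes. It was 32.5% in chains and 43.2% outside on chromosomes of 50 Mb or more, 25.1% in chains and 41.7% outside at 20 to 50 Mb, and 26.1% in chains and 36.2% outside on shorter chromosomes. The share of both antibodies was 28.7% in chains and 22.8% outside, 27.2% in chains and 23.6% outside, and 28.4% in chains and 20.4% outside in the same order, with overlapping intervals at 20 to 50 Mb (23.4 to 31.3% in chains and 21.5 to 25.8% outside). The Otx2 class made up 38.7% in chains and 34.0% outside on the longest chromosomes and 47.7% in chains and 34.7% outside at 20 to 50 Mb. On the shorter ones it was 45.5% in chains (42.0 to 49.0%) and 43.3% outside (41.1 to 45.6%), where the intervals overlap.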

How the data were processed

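The data are 1 list of narrow peaks for each of 4 CUT&RUN libraries, and each library was its own group. The submitters' processing notes name Bowtie2, SAMtools, deepTools, MACS2 and galGal5, with no settings. The control, the threshold and the handling of duplicate reads are not given in the sources used here. The deposited columns hold a fold enrichment (a ratio) at the summit, −log10 of p and of q, and a score, which is −log10 q multiplied by 10 with its decimals dropped. Values were used within a list only. Summit reads k and background λ were recovered from fold = (ck + 1)/(λ + 1) and the Poisson p, to within 0.002 in −log10 p, for 100% of peaks, where the scale c was 0.845 for the 30 min Otx2 library and 1 elsewhere. The smallest k was taken, and reads are before scaling. The smallest λ of a list was taken as its genome-wide background. This step and the chaining were tested on simulated data. Python 3.11.15, numpy 2.4.6, pandas 2.3.3 and scipy 1.17.1 were used. Chain spans and chromosome lengths come from the peaks alone.

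The members and lists were chosen with earlier results of these data known. Chains named are the 10 with the most regions (ties by shorter span), the 3 densest of 6 or more regions, and the longest of each class alone. For some chains described singly, the region with the highest smallest −log10 q is given. The chain with the highest fold, the 2 further chains of raised background and the regions of highest fold on chromosomes 26 and 10 were added after values were seen. Motif searches, genes and sequences need a galGal5 genome and were not run.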

Additional observations from a re-analysis of the deposited data

How the results depend on the processing

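The rule sets the numbers of members and chains. A gap of 10000 bases gave 1033 members in 207 chains and a gap of 40000 bases gave 3753 in 606. Chains of 3 or more gave 3402 in 816, and chains of 6 or more gave 964 in 117. Peaks with −log10 q of at least 5 gave 732 in 141, joining at 50% overlap gave 1391 in 265, and dropping regions with background above 3 times the genome-wide one gave 720 in 140. Regions at both times of Otx2 alone gave 999 in 183, and of Oc1 alone 648 in 131. Scaling the gap, or dropping regions with background above 10 times (chosen after seeing the data), gave 1794 and 1921 members. Differences between members and others follow in percentage points. For both antibodies the difference was 8.63 with the 10000-base gap and 2.30 without raised background. It was -4.92 from Otx2 regions alone and 9.905 from Oc1 regions alone, each over regions of that antibody only. On these bases, the shares under the rule were 39.5% in chains and 38.1% outside for Otx2, and 49.9% in chains and 35.2% outside for Oc1. For the Otx2 class it was 9.77 in chains of 6 or more, 11.2 with −log10 q of at least 5 and 19.2 without raised background. For the Oc1 class it was -16.5 with the 10000-base gap, -16.3 with the −log10 q limit and -21.5 without raised background. From Oc1 regions alone it was -9.905, which mirrors the 9.905 for both antibodies and is not a separate result. For strong Otx2 peaks at 25 min it was 10.7 with the −log10 q limit, 10.1 from Otx2 regions alone and 4.38 from Oc1 regions alone. At 30 min it was 10.5 in chains of 6 or more, 10.96 with the −log10 q limit and 11.8 without raised background. For strong Oc1 peaks at 30 min it was 6.17 with the 10000-base gap, 0.619 from Otx2 regions alone and 0.8755 without raised background. The density ratio of regions that were not reproducible was 5.62 and 3.85 with gaps of 10000 and 40000 bases, 5.355 in chains of 6 or more, 6.70 with the −log10 q limit, 6.99 with 50% overlap, 5.485 from Otx2 regions alone and 4.30 with the scaled gap. With 50% overlap, peaks left unjoined to members can themselves add to this density. The limit of 3 times the genome-wide background marked the libraries unevenly, and regions of both antibodies had peaks in more libraries that could pass it. The cause of these shifts was not tested. The value for both antibodies from Otx2 regions alone is the one change of sign, and it has a narrower base than the value under the rule. No paired analysis was possible because the groups share fewer than 2 replicate numbers. The antibodies are given side by side at each time instead. With few reads per peak, absence of a peak does not show absence of the factor.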

Other observations

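Chains formed by each antibody alone overlapped in part. Regions at both times of Otx2 gave 183 chains with 16.7% of those regions, the longest of 27, and regions at both times of Oc1 gave 131 chains with 10.7% of those regions, the longest of 12. Of the Otx2 chains, 44 (24.0%, 18.4 to 30.7%) overlapped an Oc1 chain, which is 33.6% (26.1 to 42.0%) of the Oc1 chains. Regions of both antibodies enter both sets of chains, so part of this overlap is built in. What such regions and the chain spans alone would give was not computed, so the counts do not show whether the overlap was high or low.

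In regions of both antibodies, the summits of Otx2 and Oc1 lay a median of 60 bases apart in chains and 66.5 bases outside at 25 min, and 68.5 bases in chains and 68 outside at 30 min. They lay within 100 bases in 69.7% of members (65.8 to 73.2%) and 67.3% of other regions (65.1 to 69.5%) at 25 min, and in 65.9% of members (62.0 to 69.6%) and 66.7% of other regions (64.5 to 68.9%) at 30 min. More than 1 peak of a library was joined into 6.61% of members (5.62 to 7.76%) and 5.20% of other reproducible regions (4.73 to 5.73%). Neighbouring chains on a chromosome lay a median of 0.992 Mb apart, and 32 of 348 neighbouring pairs lay within 100 kb of each other. Over all chromosomes, 8.48% of members (7.36 to 9.75%) and 8.04% of other reproducible regions (7.45 to 8.67%) lay within 1 Mb of the outermost peak. On chromosomes of 50 Mb or more it was 0.487% of members, or 4 of 821, and 2.48% of others. At 20 to 50 Mb it was 10.1% of members (7.71 to 13.1%) and 6.74% of others (5.58 to 8.12%), where the intervals overlap. On shorter ones it was 15.9% of members and 21.9% of others.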
